A study of Homo sapiens with 6 samples.

Results

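RAB proteins are small GTPases that give each compartment of the secretory and endocytic system its identity. A RAB is loaded with GTP by an exchange factor on its membrane, recruits effectors such as tethers and motors, and is switched off by a GTPase-activating protein, after which a GDI carrier keeps it soluble until the next round. In lymphoid cells they are known for routing surface receptors, granules and lysosomes. The RAB genes described here are the 47 rows, of 11911 in the deposited table, whose symbol is RAB followed by a number and at most 1 letter, so the choice used names and no measured value.

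RNA was sequenced from RS4;11, a human cell line established from acute lymphoblastic leukemia of B-cell precursors, known to carry a KMT2A::AFF1 fusion. In 3 libraries the cells had been without asparagine for 16 hours, and 3 libraries came from the same line with asparagine present. The treatment entry, which is the same for all 6 samples, names a medium without asparagine and 10% dialyzed serum, so it is not stated what serum the cells with asparagine received. The column names of the depleted arm could stand for asparaginase and those of both arms for control cells, which the titles do not settle. Separate cultures are not mentioned for the libraries, so the p-values rest on the spread between these libraries and that spread may be technical. All 8 B-precursor markers listed, among them CD79A and PAX5, have a row in the table, with summed levels of 2842 to 3809 CPM in the depleted libraries and 3625 to 3907 CPM with asparagine. The sum hides opposite differences, since 4 of the 8 were below every library with asparagine in all depleted libraries and 2 were above. Over all genes tested, 30.8% were below and 30.2% above in this way. VPREB1 and IGLL1, of the surrogate light chain, averaged 120.4 ± 42.9 and 256 ± 140 CPM in depleted cells, against 438 ± 17.4 and 854 ± 70.8 CPM with asparagine, and PAX5 averaged 1333 ± 111 CPM in depleted cells and 1004 ± 10.4 CPM with asparagine (SD, n = 3 libraries each). None of 5 T-cell and 4 erythroid markers has a row, and of 5 myeloid markers CSF1R alone does, at 16.0 to 28.9 CPM in the depleted libraries and 30.4 to 31.4 CPM with asparagine.

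Values are normalized CPM, the authors' depth-scaled signal per gene, and the columns would correspond to 29971364 to 51127073 reads if the common step of their values is 1 read, as taken for all read numbers here. Where 3 values are given for an arm, they are libraries 1, 2 and 3 in that order. Changes are log2 fold changes, depleted minus with asparagine, of log2(CPM + 1), which understates the change of genes with low values. They were tested with limma across all 11892 genes that passed a filter on low values, with Benjamini-Hochberg adjustment at 0.05, and all 47 RAB genes passed that filter, RAB30 and RAB26 only through the arm in which they are high. Among the depleted libraries, number 1 differed from the others (Pearson's r across genes 0.940 and 0.933, against 0.996 between libraries 2 and 3, and 0.927 to 0.928 between library 1 and the libraries with asparagine) and in how its values varied with the GC content of transcripts, as given below for the RAB genes. Values after a GC correction are therefore given beside those of the genes that passed. In bulk RNA, fewer cells that express a gene and less of its RNA per cell cannot be told apart.

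Of the 47 RAB genes, 17 were higher and 9 lower in depleted cells, and 21 did not pass the test. Over all genes tested, 25.1% were higher and 26.2% lower, while the RAB counts correspond to 36.2% and 19.1%. Without RAB30 and RAB26, which had to differ to pass the filter, the counts were 16 and 8 of 45. The median log2 fold change of the RAB genes was 0.15, and that of all genes 0.0098. By library, the RAB median relative to the mean with asparagine was 0.082, 0.15 and 0.21 in depleted libraries 1, 2 and 3. A change of at least 2-fold on this scale was seen for 11 higher and 3 lower RAB genes, against 10.7% and 11.3% of all genes. The 11 include RAB30 and the 3 include RAB26. After the GC correction 17 RAB genes were higher and 14 lower and their median was 0.048, where the background was 35.1% and 34.3%. Of the 17 and 9, the correction kept 14 and 8, and 0 passed in the opposite direction. Over all genes it kept 2563 of the 2987 higher and 2669 of the 3116 lower, though only 11352 of the 11892 genes could be corrected. The counts also rested on single libraries. Without depleted library 1, 20 RAB genes were higher and 15 lower (background 40% and 41.6%), and with the GC correction as well 18 and 15 (39.4% and 38.7%). Without library 2 with asparagine 11 were higher, and the lower count was 5 without depleted library 2 and 4 without any one of the libraries with asparagine. Over all genes these counts fell too, to 1724 higher without library 2 with asparagine. The lower count of all genes was 1945 without depleted library 2. It was 1813, 1785 and 2149 without libraries 1, 2 and 3 with asparagine.

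**Figure D1:**
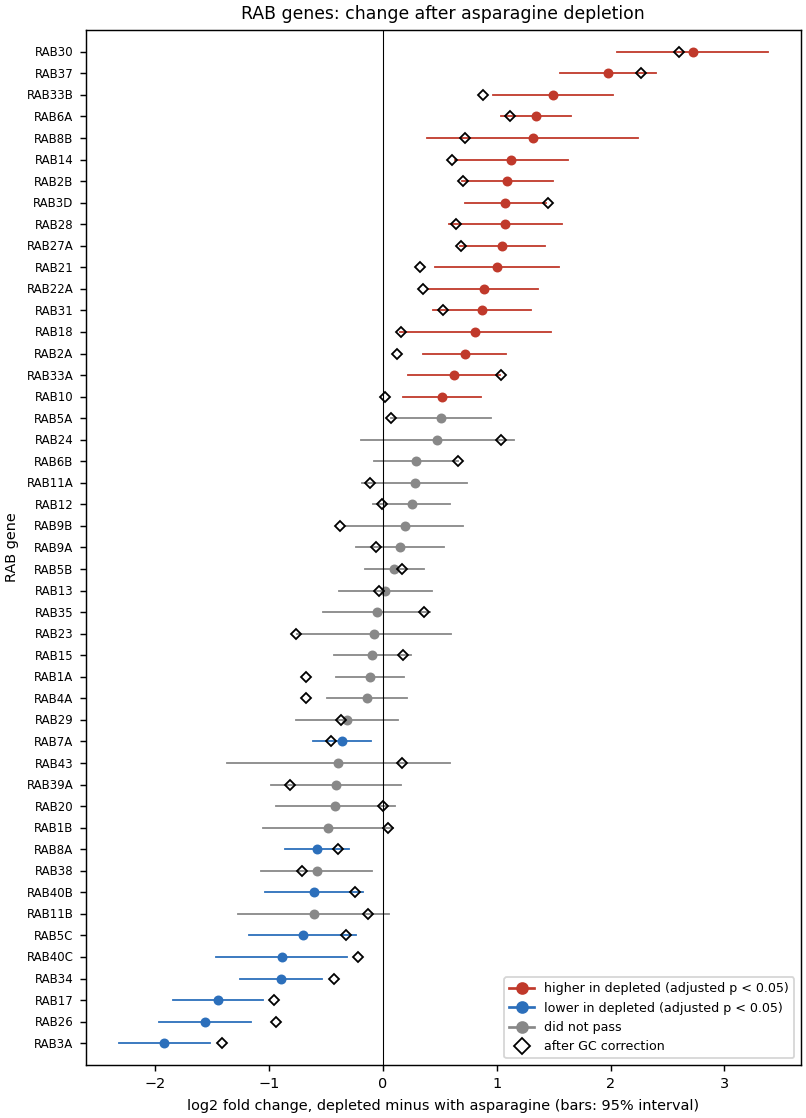
Log2 fold change of each of the 47 RAB genes (x axis, depleted minus with asparagine) with its 95% interval, ordered by size. Red marks the 17 higher genes, blue the 9 lower ones and grey the 21 that did not pass, and open diamonds give the value after the GC correction. RAB30 and RAB37 lie at the top and RAB3A at the bottom with or without the correction.

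The largest increase was that of RAB30, a Golgi RAB (chromosome 11, 82973133 to 83071923 on GRCh38). RAB30 stood at 4.76, 9.96 and 10.6 CPM in the depleted libraries, against 0.534, 0.248 and 0.339 CPM with asparagine. All libraries with asparagine lay under 1 CPM and all depleted libraries above 4 CPM, with a log2 fold change of 2.72 and 2.60 after the GC correction. RAB30 passed the filter through the depleted libraries alone, so its adjusted p (0.000671) is given as a description. A ratio of group means in CPM put it 22.6-fold higher, on 9 to 396 reads per library. Without any one depleted library RAB30 falls under the filter on low values, so no such fit was made. The neighbouring antisense gene RAB30-AS1, which shares no exonic base with RAB30 in GENCODE 29, was also higher, at 10.3, 13.1 and 11.2 CPM in the depleted libraries, against 5.48, 4.99 and 5.38 CPM with asparagine (log2 fold change 0.99, adjusted p = 0.0019, SE 0.14, and 0.79 after the correction). No strand setting is stated, but in GENCODE 29 the pair do not overlap, since RAB30 ends at 83071923 and RAB30-AS1 starts at 83072066. The annotation behind the counts is not stated, and mixing of reads under another annotation was not tested.

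RAB37, a RAB of secretory granules (chromosome 17, 74670578 to 74747335), had the next largest increase, at 83.0, 60.1 and 56.0 CPM in the depleted libraries, against 16.6, 16.5 and 14.6 CPM with asparagine. Its groups did not overlap, and here depleted library 1 was the highest of all 6. The log2 fold change was 1.98 (adjusted p = 0.000451, SE 0.18), and the GC correction raised it to 2.26. The opposite end was held by RAB3A, which attaches to vesicles of regulated secretion (chromosome 19, 18196784 to 18204074), at 3.71, 3.19 and 2.31 CPM in the depleted libraries, against 15.2, 14.5 and 13.2 CPM with asparagine. The arms lay far apart, with a log2 fold change of -1.92 (adjusted p = 0.000415, SE 0.17) and -1.41 after the correction. In GENCODE 29, 9.08% of the exonic bases of RAB3A are shared with MPV17L2 on the other strand, which was lower too (log2 fold change -1.46, adjusted p = 0.0134, and -0.93 after the correction).

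Sequence before the start site is shown for the RAB genes with the 2 largest increases and the 2 largest decreases among those that have an entry in the RefSeq promoter set (GRCh38.p14) within 500 bases of the GENCODE gene start. RAB37, RAB33B and RAB26 have no entry, and that of RAB17 lies farther away. Each run is the 250 bases before the start, written 5′ to 3′ on the strand of the gene, and capitals mark motif matches.
RAB30 promoter (chr11:83071898-83072147, minus strand): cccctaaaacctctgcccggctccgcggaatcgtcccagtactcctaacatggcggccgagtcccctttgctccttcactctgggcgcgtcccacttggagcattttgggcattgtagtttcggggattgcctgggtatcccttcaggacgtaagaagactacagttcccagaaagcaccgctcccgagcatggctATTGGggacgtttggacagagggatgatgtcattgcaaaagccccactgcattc
RAB6A promoter (chr11:73761075-73761324, minus strand): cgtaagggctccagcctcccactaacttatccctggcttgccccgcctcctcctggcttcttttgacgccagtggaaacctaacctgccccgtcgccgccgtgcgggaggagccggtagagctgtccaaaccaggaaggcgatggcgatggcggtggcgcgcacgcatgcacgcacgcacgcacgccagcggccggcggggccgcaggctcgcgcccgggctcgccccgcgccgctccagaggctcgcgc
RAB3A promoter (chr19:18204043-18204292, minus strand): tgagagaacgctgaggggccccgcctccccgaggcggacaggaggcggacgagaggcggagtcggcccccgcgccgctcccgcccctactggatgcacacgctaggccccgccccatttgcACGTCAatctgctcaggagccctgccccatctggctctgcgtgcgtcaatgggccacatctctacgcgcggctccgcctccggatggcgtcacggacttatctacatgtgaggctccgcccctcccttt
RAB34 promoter (chr17:28718269-28718518, minus strand): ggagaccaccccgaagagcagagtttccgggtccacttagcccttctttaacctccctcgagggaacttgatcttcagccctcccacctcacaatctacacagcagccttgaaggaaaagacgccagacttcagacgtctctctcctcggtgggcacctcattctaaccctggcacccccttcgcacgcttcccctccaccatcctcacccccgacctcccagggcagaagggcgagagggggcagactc
The windows had 56.4% G and C for RAB30, 71.6% for RAB6A, 68.4% for RAB3A and 60.0% for RAB34. The motifs searched on both strands were TGATGNAA (the amino acid response element bound by ATF4 and C/EBP partners), CACGTG (the E-box of MYC and TFEB), TGACGT (the core of the CRE), TGANTCA (AP-1) and CCAAT. In RAB30 a CCAAT on the opposite strand spans bases 54 to 50 before the start, in RAB3A a TGACGT on the opposite strand spans bases 129 to 124, and RAB6A and RAB34 hold none of the 5. Of the 37 RAB genes with an entry, 1 window holds TGATGNAA (RAB28), against 3.19% of all 27305 promoters, and 5 hold CACGTG (RAB4A, RAB5A, RAB21, RAB24 and RAB31), against 6.49%. TGACGT was found for RAB3A alone and TGANTCA for RAB5B alone, where the shares over all promoters were 7.42% and 6.60%, and CCAAT stood in 10 windows, against 33.0%. No motif marked in these runs overlaps another.

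RAB genes of the endoplasmic reticulum and Golgi gave 7 higher and 1 lower gene of 14 (50% and 7.14%, against 25.1% and 26.2% of all genes). The 7 include RAB30, which passed the filter through the depleted libraries alone. After the GC correction 6 were higher and 3 lower, where the background was 35.1% and 34.3%. The median log2 fold change was 0.46, and 0.16 after the GC correction. RAB6A, which governs traffic within and back from the Golgi (chromosome 11, 73675638 to 73761137), stood at 206, 246 and 260.3 CPM in the depleted libraries, against 89.6, 90.2 and 98.0 CPM with asparagine. Every depleted library held at least 2-fold the level of every library with asparagine, with a log2 fold change of 1.34 (adjusted p = 0.000561, SE 0.13) and 1.11 after the correction. RAB33B, a Golgi RAB that binds the autophagy protein ATG16L1, stood at 21.1, 33.7 and 34.7 CPM in the depleted libraries, against 10.2, 8.27 and 10.7 CPM with asparagine, and changed by 1.49 (adjusted p = 0.00232, SE 0.22). Depleted libraries 2 and 3 lay above depleted library 1, and the corrected value was 0.88. Its relative RAB33A was higher as well (7.30, 5.12 and 5.09 CPM in depleted libraries, against 3.01, 3.78 and 3.39 CPM with asparagine, adjusted p = 0.0212), with 1.04 after the correction. Without any one library with asparagine RAB33A did not pass (adjusted p up to 0.0889).

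RAB2A and RAB2B, which act in the early secretory pathway and in delivery to lysosomes, both rose. RAB2B stood at 33.1, 43.5 and 47.6 CPM in the depleted libraries, against 17.5, 20.2 and 18.5 CPM with asparagine, with a log2 fold change of 1.09 (adjusted p = 0.0027, SE 0.17) and 0.70 after the correction. RAB2A stood at 154, 204 and 211 CPM in the depleted libraries, against 107, 119.8 and 115 CPM with asparagine, but its log2 fold change of 0.72 (adjusted p = 0.00892, SE 0.15) became 0.12 after the GC correction (adjusted p = 0.507). RAB18, known for contacts between the reticulum and lipid droplets, stood at 48.6, 100.3 and 94.3 CPM in the depleted libraries, against 43.5, 39.7 and 47.8 CPM with asparagine. Depleted library 1 was only just above the libraries with asparagine, and the log2 fold change of 0.81 (adjusted p = 0.046, SE 0.28) did not hold after the correction (0.16, adjusted p = 0.0647), nor without any one library other than depleted library 1 (up to 0.145).

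The RABs of the first step of secretion did not pass the test. RAB1A, which tethers vesicles between reticulum and Golgi, stood at 61.1, 68.5 and 74.4 CPM in the depleted libraries, against 70.5, 73.8 and 75.7 CPM with asparagine, with overlapping groups and a log2 fold change of -0.11 (95% interval -0.41 to 0.19, adjusted p = 0.474). After the GC correction RAB1A was lower (-0.67, adjusted p = 0.00994), and 22.9% of its exonic bases are shared with CEP68 on the other strand. RAB1B, its close relative, stood at 127, 72.0 and 68.8 CPM in the depleted libraries, against 126, 122 and 115 CPM with asparagine (log2 fold change -0.49, adjusted p = 0.129, and 0.048 after the correction). RAB1B was high in depleted library 1 and low in the other depleted libraries, and without depleted library 1 it passed as lower (adjusted p = 5.67e-06). RAB34, placed at the Golgi and cilium, was the group's one lower member, at 9.60, 8.03 and 7.80 CPM in the depleted libraries, against 18.3, 17.2 and 14.4 CPM with asparagine (log2 fold change -0.90, adjusted p = 0.00379, SE 0.15, and -0.43 after the correction). The others, RAB6B, RAB29, RAB39A and RAB43, had log2 fold changes of 0.29, -0.32, -0.41 and -0.39, none past the threshold. After the correction RAB6B was higher (0.66, adjusted p = 0.0241) and RAB39A lower (-0.82, adjusted p = 0.00235). For RAB43, 79.3% of its exonic bases also belong to the read-through gene ISY1-RAB43.

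**Figure D2:**
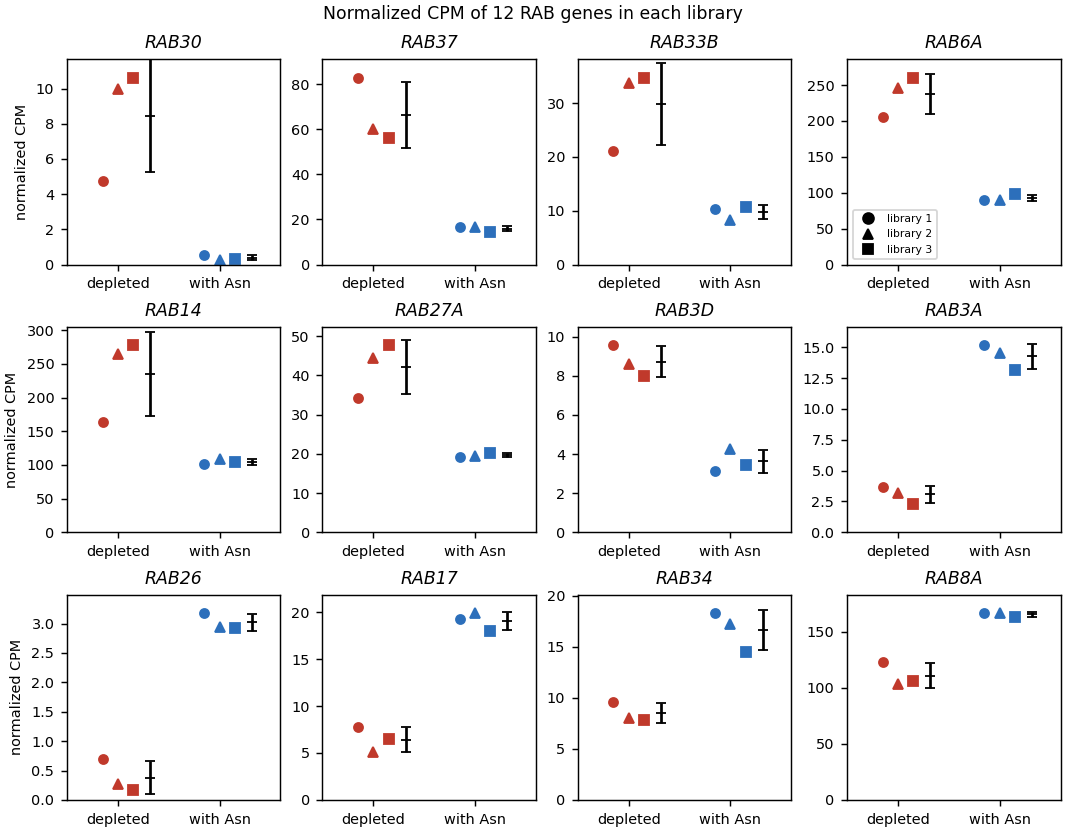
Normalized CPM (y axis, from 0) of 12 RAB genes in each depleted library (red, left) and each library with asparagine (blue, right), with circle, triangle and square for libraries 1, 2 and 3 and the mean ± SD in black. The first 7 genes lie higher in all depleted libraries and the last 5 lower, with no overlap between the arms in any panel.

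Among the 7 RABs of early endosomes, 3 rose and 1 fell (42.9% and 14.3%, against 25.1% and 26.2% of all genes). The group median was 0.51 and 0.17 after the GC correction. RAB21, which follows integrins into endosomes, stood at 77.2, 129 and 138 CPM in the depleted libraries, against 54.1, 51.6 and 59.4 CPM with asparagine (log2 fold change 1.00, adjusted p = 0.0115, SE 0.23). RAB22A, a regulator of endosome sorting, stood at 45.7, 67.8 and 74.7 CPM in the depleted libraries, against 31.6, 31.0 and 36.1 CPM with asparagine (log2 fold change 0.88, adjusted p = 0.0116, SE 0.20), and RAB31 at 10.7, 14.3 and 12.9 CPM in the depleted libraries, against 5.09, 7.20 and 7.13 CPM with asparagine (log2 fold change 0.87, adjusted p = 0.00816, SE 0.18). In all 3 genes the arms did not overlap, and the corrected values were 0.33, 0.35 and 0.52, each past the threshold. Without library 2 with asparagine the adjusted p was 0.0507 for RAB21 and 0.0525 for RAB22A, and without library 1 with asparagine it was 0.0522 for RAB22A.

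Of the 3 genes for RAB5, which drives fusion of early endosomes, 1 passed the test. RAB5C (chromosome 17, 42124976 to 42155044) was lower, at 125, 82.3 and 76.4 CPM in the depleted libraries, against 157, 153 and 144 CPM with asparagine, with a log2 fold change of -0.71 (adjusted p = 0.0235, SE 0.20) and -0.33 after the correction. Without any one library other than depleted library 1 it missed the threshold (adjusted p up to 0.0855). In GENCODE 29, 28.8% of the exonic bases of RAB5C are shared with AC099811.2 on the same strand. RAB5A stood at 30.4, 43.4 and 45.8 CPM in the depleted libraries, against 28.0, 24.6 and 29.5 CPM with asparagine. Its arms did not overlap, yet the log2 fold change of 0.51 (95% interval 0.069 to 0.95) missed the threshold with an adjusted p of 0.0555, and it was 0.068 after the correction. RAB5B stood at 168, 164 and 186 CPM in the depleted libraries, against 159, 162 and 161 CPM with asparagine (log2 fold change 0.10, 95% interval -0.16 to 0.36, adjusted p = 0.458). RAB20 did not pass either, at -0.42 (adjusted p = 0.149).

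Of 12 RABs of recycling endosomes and the plasma membrane, 3 rose and 2 fell (25.0% and 16.7%, against 25.1% and 26.2% of all genes). The group median was -0.017. RAB14, which works between Golgi and endosomes (chromosome 9, 121178137 to 121223014), stood at 164, 264 and 277 CPM in the depleted libraries, against 101, 108 and 104 CPM with asparagine and changed by 1.13 (adjusted p = 0.00543, SE 0.21), or 0.61 after the correction. RAB8B stood at 39.3, 103 and 107 CPM in the depleted libraries, against 32.6, 23.5 and 34.5 CPM with asparagine, with depleted library 1 far closer to the cells with asparagine than libraries 2 and 3 (log2 fold change 1.32, adjusted p = 0.029, SE 0.39, and 0.72 after the correction). RAB10, known for delivery of cargo to the cell surface, stood at 233, 299 and 307 CPM in the depleted libraries, against 191, 182 and 210.1 CPM with asparagine, and its log2 fold change of 0.51 (adjusted p = 0.0237, SE 0.14) was 0.021 after the correction (adjusted p = 0.852). Leaving out any one library other than depleted library 1 moved RAB8B and RAB10 above the threshold, to an adjusted p of up to 0.102 and 0.1.

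RAB8A, the relative of RAB8B that carries vesicles to the plasma membrane and cilium, was lower. It stood at 123, 103 and 106 CPM in the depleted libraries, against 167, 167 and 163 CPM with asparagine, with a log2 fold change of -0.58 (adjusted p = 0.0077, SE 0.12) and -0.39 after the correction. Of the exonic bases of RAB8A, 37.8% are shared with AC008894.2 on the other strand. RAB17, best known from polarized epithelia, stood at 7.75, 5.09 and 6.46 CPM in the depleted libraries, against 19.3, 19.9 and 18.0 CPM with asparagine, with each depleted value far below those with asparagine (log2 fold change -1.45, adjusted p = 0.000976, SE 0.17, and -0.96 after the correction). The recycling RABs RAB11A and RAB11B did not pass. RAB11A stood at 136, 206 and 219 CPM in the depleted libraries, against 144, 153 and 154 CPM with asparagine (log2 fold change 0.28, adjusted p = 0.257), and RAB11B at 108, 59.1 and 52.0 CPM in the depleted libraries, against 115, 115 and 91.2 CPM with asparagine (log2 fold change -0.61, adjusted p = 0.107). In both, depleted library 1 lay close to the libraries with asparagine and depleted libraries 2 and 3 lay apart, and the values after the correction were -0.12 and -0.13. The remaining members, RAB4A, RAB12, RAB13, RAB15 and RAB35, had log2 fold changes of -0.14, 0.25, 0.022, -0.092 and -0.057, none past the threshold. After the correction RAB4A was lower (-0.67, adjusted p = 0.00794) and RAB35, which acts in fast recycling, higher (0.36, adjusted p = 0.000666).

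Late endosomes and lysosomes were represented by 4 genes, of which 0 were higher and RAB7A was lower. Over all genes 25.1% were higher and 26.2% lower. RAB7A, which directs late endosomes and autophagosomes to the lysosome (chromosome 3, 128726122 to 128814796), stood at 223, 197 and 207 CPM in the depleted libraries, against 260.1, 277 and 270.1 CPM with asparagine. The decrease was small and without overlap, with a log2 fold change of -0.36 (adjusted p = 0.0283, SE 0.11) and -0.46 after the correction (adjusted p = 0.00101). Leaving out any library other than depleted library 1 took the adjusted p of RAB7A above the threshold, to at most 0.123. RAB9A and RAB9B, of transport from late endosomes to the Golgi, had differences of 0.15 and 0.19, short of the threshold, and after the correction RAB9B was lower (-0.37, adjusted p = 0.0132). RAB24, linked to autophagy, stood at 42.3, 22.3 and 21.4 CPM in the depleted libraries, against 19.4, 23.2 and 16.0 CPM with asparagine, with overlapping arms and an adjusted p of 0.194. It was higher after the correction, by 1.03, and 44.8% of its exonic bases lie in MXD3 on the same strand, which stood at 82.3, 40.3 and 37.3 CPM in the depleted libraries, against 69.7, 75.0 and 61.0 CPM with asparagine.

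RABs of secretory granules and lysosome-related organelles gave 3 higher and 2 lower genes of 6 (50% and 33.3%, against 25.1% and 26.2% of all genes). After the GC correction 3 were higher and 3 lower, where the background was 35.1% and 34.3%. Beside RAB37, RAB27A, which docks secretory lysosomes and exosomes (chromosome 15, 55202966 to 55319113), stood at 34.3, 44.3 and 47.6 CPM in the depleted libraries, against 19.2, 19.4 and 20.3 CPM with asparagine, and changed by 1.05 (adjusted p = 0.00238, SE 0.16), or 0.69 after the correction. RAB3D, a granule RAB, stood at 9.55, 8.61 and 7.99 CPM in the depleted libraries, against 3.15, 4.27 and 3.45 CPM with asparagine, with a log2 fold change of 1.08 (adjusted p = 0.00182, SE 0.15) that the correction raised to 1.45. The decreases were those of RAB3A and of RAB26, a granule RAB also linked to autophagy. RAB26 stood at 0.704, 0.276 and 0.161 CPM in the depleted libraries, against 3.18, 2.95 and 2.93 CPM with asparagine, on 6 to 147 reads, with a log2 fold change of -1.56 and -0.94 after the correction. It passed the filter through the libraries with asparagine alone, so its adjusted p (0.000811) is a description. RAB38, of melanosomes and other lysosome-related organelles, stood at 3.03, 2.51 and 4.80 CPM in the depleted libraries, against 5.57, 5.02 and 5.998 CPM with asparagine, without overlap, but missed the threshold (log2 fold change -0.58, 95% interval -1.07 to -0.095, adjusted p = 0.0502). After the correction RAB38 was lower (-0.71, adjusted p = 0.0105). Its partner RAB32 was not analysed here.

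Of the last 4 genes, RAB28, a cilium RAB, stood at 28.6, 46.7 and 46.4 CPM in the depleted libraries, against 17.3, 18.1 and 19.4 CPM with asparagine (log2 fold change 1.08, adjusted p = 0.00644, SE 0.21, and 0.64 after the correction). RAB40B and RAB40C, which carry a SOCS box and serve ubiquitin ligases, were lower. RAB40C stood at 35.3, 18.6 and 20.2 CPM in the depleted libraries, against 46.8, 46.4 and 41.4 CPM with asparagine (log2 fold change -0.89, adjusted p = 0.0217, SE 0.24), and RAB40B at 6.67, 4.72 and 7.72 CPM in the depleted libraries, against 9.95, 10.5 and 9.64 CPM with asparagine (log2 fold change -0.60, adjusted p = 0.0301, SE 0.18). After the correction they had -0.22 and -0.25, and RAB40B no longer passed (adjusted p = 0.259). Leaving out 1 library ended the call of RAB40C for any but depleted library 1 (adjusted p up to 0.0796) and that of RAB40B for depleted library 2 or any library with asparagine (up to 0.105). RAB23, a brake on Hedgehog signalling, did not pass (-0.079, adjusted p = 0.829), was lower after the correction (-0.77) and shares 57.7% of its exonic bases with BAG2 on the other strand.

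Without regard to the test, 21 RAB genes had every depleted value above every value with asparagine and 10 had every depleted value below, or 44.7% and 21.3% of the 47. The 21 include RAB30 and the 10 include RAB26, whose lack of overlap was fixed by the filter on low values. Over all genes tested these shares were 30.2% and 30.8%.

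Per kilobase of annotated exon, with the mean CPM of an arm divided by the length of the merged exons, RAB10 and RAB7A led in depleted cells at 77.0 and 76.9 CPM per kilobase, followed by RAB14 at 54.6. With asparagine RAB7A led at 99.0 CPM per kilobase, before RAB1B at 60.1, RAB5C at 54.8 and RAB10 at 53.5. RAB6A had 48.5 CPM per kilobase in depleted cells and 18.9 with asparagine. RAB30, whose annotated exons are long, had the lowest level with asparagine, at 0.0316 CPM per kilobase, and 0.714 in depleted cells.

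The direction of change went with the GC content of the RAB transcripts, as it did over all genes. With all genes in 5 classes of about equal size, the lowest class (up to 42.5% G and C) held 14 RAB genes, of which 9 were higher and 0 lower. The highest class (above 59.1%) held 8, of which 0 were higher and 4, RAB26 among them, lower. Of all genes, 37.8% were higher and 5.02% lower in the lowest class, and 6.83% and 46.0% in the highest. The median log2 fold change of the RAB genes in these classes was 0.77 and -0.75, and that of all genes 0.56 and -0.61. Across the 47 RAB genes, which share the same libraries, Pearson's r between GC content and log2 fold change was -0.54, and it was -0.056 after the correction. The correction removes the trend with GC content over all genes by design, so the second value is no separate result. Across all 11352 tested genes with a GC value, r was -0.47 without the correction. For the RAB genes, the depleted libraries taken one by one against the mean with asparagine gave r of -0.16, -0.62 and -0.66. RAB37, RAB3D and RAB33A, with 55.0%, 56.7% and 57.5% G and C, were higher, while all genes of their class had a median of -0.34, and RAB30 and RAB6A lay above the medians of theirs (0.018 and 0.30). In the lowest class 6 of the 14 RAB genes lay below its median, RAB23, RAB1A, RAB4A, RAB9B, RAB5A and RAB10. Beyond these values, the part of GC content in the changes was not tested.

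**Figure D3:**
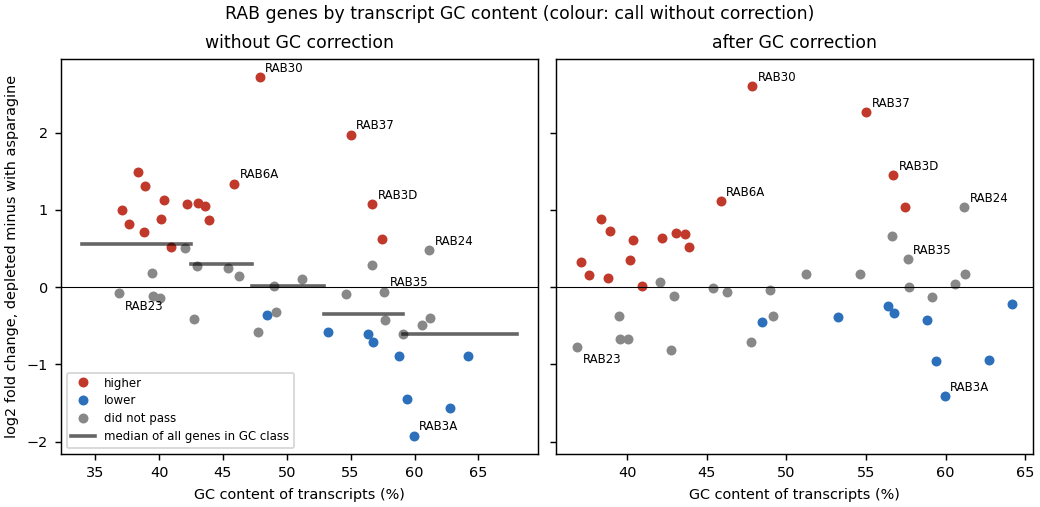
Log2 fold change of the 47 RAB genes (y axis) against the GC content of their transcripts (x axis, percent), without (left) and after (right) the GC correction, coloured by the call without correction. Grey bars on the left are the medians of all genes in 5 GC classes, 0.56 in the lowest and -0.61 in the highest. The slope seen on the left (r = -0.54) is near 0 on the right (r = -0.056), where the correction removed it by design.

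Close relatives were set against each other as the difference of their log2(CPM + 1) within each library, for 12 pairs. A two-sided exact permutation test over the 6 libraries cannot go below 0.10, and the smallest value after adjustment over the 12 pairs was 0.24, so no pair could pass. The widest shift was that of RAB3D relative to RAB3A, at 1.16, 1.199 and 1.44 in the depleted libraries, against -1.96, -1.56 and -1.67 with asparagine (difference 2.999 and, after the GC correction, 2.86). Per kilobase of exon, RAB3D had 1.97 CPM in depleted cells and 0.820 CPM with asparagine, and RAB3A 1.69 CPM and 7.86 CPM. RAB8B relative to RAB8A stood at -1.63, -0.0085 and 0.015, against -2.32, -2.78 and -2.21, a difference of 1.90 and 1.11 after the correction. RAB5A relative to RAB5C stood at -2.001, -0.91 and -0.73, against -2.44, -2.59 and -2.25, and its difference of 1.22 was 0.40 after the correction. These 3 pairs did not overlap between the arms with or without the correction, nor did RAB2A relative to RAB2B, which was lower in depleted libraries (difference -0.37, and -0.58 after the correction). RAB6A relative to RAB6B differed by 1.06 without overlap and by 0.45 with overlap after the correction. RAB11A relative to RAB11B differed by 0.89 and by 0.014 after the correction, with overlap in both (exact permutation p = 0.40 and 0.90), and RAB1A relative to RAB1B by 0.37 and -0.72, which reversed the sign.

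**Figure D4:**
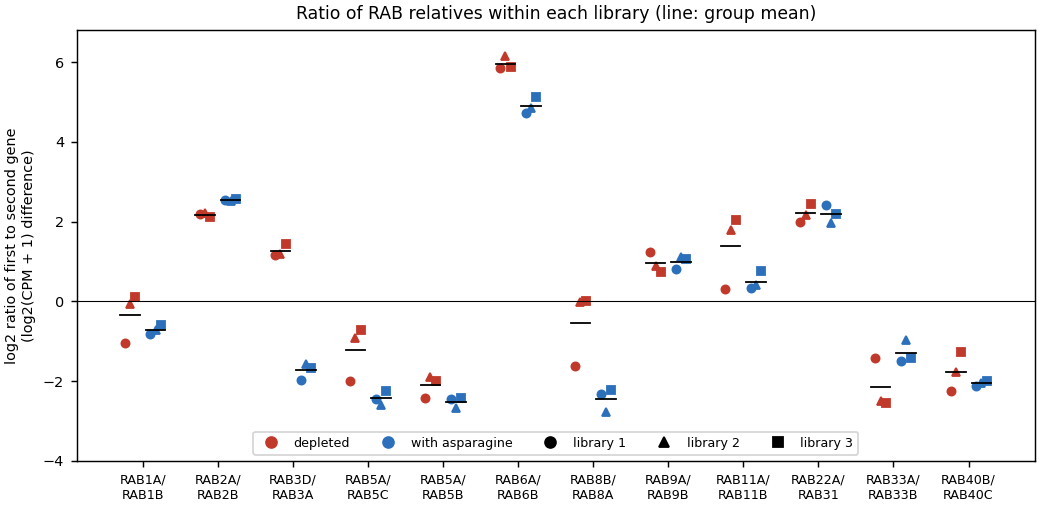
Log2 ratio of 12 pairs of RAB relatives within each library (y axis, difference of log2(CPM + 1), first gene minus second), depleted in red on the left of each pair and with asparagine in blue on the right, with shapes for libraries 1 to 3 and a line at the group mean. RAB3D/RAB3A moves across 0, with means of 1.27 and -1.73, while RAB11A/RAB11B and RAB1A/RAB1B spread within the depleted arm.

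The genes that run the RAB cycle were examined as lists, whose shares can be read against the 25.1% higher and 26.2% lower of all genes, and 35.1% and 34.3% after the GC correction. Of 46 exchange factor genes, TRAPP subunits included, 12 rose and 7 fell (26.1% and 15.2%), or 20 and 8 after the correction, and the median was 0.12. TRAPPC6B, a TRAPP subunit, averaged 77.6 ± 28.1 CPM in depleted cells and 17.9 ± 2.72 CPM with asparagine (SD, n = 3 libraries each, as in all such values here), with a log2 fold change of 1.99 (adjusted p = 0.00238, SE 0.30) and 1.30 after the correction. RPGR, a cilium protein, rose by 1.45 (adjusted p = 0.012), DENND2D by 1.23 (adjusted p = 0.000488) and RIC1, a subunit of the exchange factor for RAB6, by 1.17 (adjusted p = 0.00324), with corrected values of 0.91, 1.29 and 0.79. RIN1, an exchange factor for RAB5, averaged 4.09 ± 1.71 CPM in depleted cells and 17.3 ± 0.652 CPM with asparagine and changed by -1.89 (adjusted p = 0.00125, SE 0.24), or -1.15 after the correction. TRAPPC2L, MON1A (of the RAB7 exchange factor) and TRAPPC1 fell, with log2 fold changes of -1.50, -0.94 and -0.83, or -1.09, -0.34 and -0.45 after the correction. The calls of MON1A and TRAPPC1 did not hold without depleted library 2 or 3 or without library 1 or 2 with asparagine (adjusted p up to 0.0711 and 0.0705), nor that of RPGR without library 2 with asparagine (0.0507).

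Of 37 genes for GTPase-activating proteins, 12 rose and 10 fell (32.4% and 27.0%), or 18 and 10 after the correction, and the median was 0.12. TBC1D16, which acts on RAB4A, averaged 138 ± 30.7 CPM in depleted cells and 16.0 ± 0.595 CPM with asparagine, 8.63-fold higher, with a log2 fold change of 3.01 (adjusted p = 0.000109, SE 0.17) and 3.51 after the GC correction. TBC1D19, TBC1D8 and RAB3GAP1, a subunit of the complex that acts on RAB3, rose by 1.54, 1.48 and 1.42, or 1.04, 1.69 and 1.04 after it. SGSM3, SGSM2, TBC1D14 and TBC1D4 fell, with log2 fold changes of -0.96, -0.95, -0.73 and -0.70, or -0.40, -0.42, -0.64 and -0.86 after the correction. Single libraries with asparagine, or depleted library 2 for SGSM2, decided the calls of SGSM2, SGSM3 and TBC1D4, whose adjusted p was up to 0.0577, 0.0506 and 0.0612 without them. Among 13 genes for carriers, prenylation and the YIPF membrane proteins, 5 rose and 2 fell (38.5% and 15.4%), or 8 and 3 after the correction, and the median was 0.11 and 0.42 after the correction. YIPF4 averaged 142 ± 35.0 CPM in depleted cells and 46.0 ± 2.97 CPM with asparagine (log2 fold change 1.57, adjusted p = 0.00145, SE 0.20), YIPF6, CHM (the escort protein REP1) and YIPF5 rose by 1.17, 1.13 and 0.84, and RABGGTA, a subunit of the enzyme that prenylates RABs, and the carrier GDI2 fell, with -1.13 and -0.45. The corrected values were 0.95 for YIPF4, 0.64 for YIPF6, 0.42 for CHM, 0.46 for YIPF5, -0.62 for RABGGTA and -0.78 for GDI2. Without 1 library the adjusted p was up to 0.118 for CHM (any but depleted library 1), 0.12 for GDI2 (depleted library 2 or any with asparagine), 0.0588 for RABGGTA (library 1 or 2 with asparagine) and 0.0579 for YIPF5 (library 1 with asparagine).

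Of 46 effector genes, 12 were higher and 10 lower (26.1% and 21.7%), or 22 and 11 after the correction, with 0.12 as the median. OPTN, the autophagy receptor optineurin that binds RAB8, averaged 17.8 ± 1.80 CPM in depleted cells and 1.39 ± 0.207 CPM with asparagine, 12.8-fold higher, with a log2 fold change of 2.98 (adjusted p = 5.17e-05, SE 0.14) and 2.68 after the correction. SYTL1, a synaptotagmin-like effector of RAB27A, averaged 161 ± 59.0 CPM in depleted cells and 31.8 ± 4.25 CPM with asparagine (log2 fold change 2.25, adjusted p = 0.000922, SE 0.26), and MICAL2 and the myosin MYO5C rose by 1.997 and 1.39, with corrected values of 2.99, 2.20 and 1.43. RABEPK averaged 22.7 ± 6.19 CPM in depleted cells and 66.7 ± 4.02 CPM with asparagine (log2 fold change -1.54, adjusted p = 0.00139, SE 0.20), and RILP, the RAB7 effector that recruits dynein, RAB11FIP3 and BICD2 fell, with -1.03, -0.75 and -0.68. The corrected values were -1.53 for RABEPK, -0.33 for RILP, -0.16 for RAB11FIP3 and -0.46 for BICD2. RILP and RAB11FIP3 missed the threshold without any one library other than depleted library 1 (adjusted p up to 0.0747 and 0.0991). Of 21 tether and retromer genes, 6 were higher and 3 lower (28.6% and 14.3%), or 10 and 5 after the correction, with 0.21 as the median. VPS8, of the early endosome tether CORVET, averaged 59.5 ± 12.9 CPM in depleted cells and 21.6 ± 2.99 CPM with asparagine (log2 fold change 1.41, adjusted p = 0.00208, SE 0.20), while TGFBRAP1, of the same tether, averaged 52.8 ± 3.82 CPM in depleted cells and 92.1 ± 3.54 CPM with asparagine (log2 fold change -0.79, adjusted p = 0.00237, SE 0.12). The exocyst genes EXOC8, EXOC6B and EXOC1 rose by 1.01, 0.95 and 0.93, and the shared tether genes VPS18 and VPS16 fell, with -0.88 and -0.87. The corrected values were 0.99 for VPS8, -0.63 for TGFBRAP1, 0.63, 0.66 and 0.37 for the exocyst genes and -0.40 and -0.42 for VPS18 and VPS16. EXOC1 did not pass without any one library other than depleted library 1, nor VPS18 without depleted library 2 or 3 or library 1 or 2 with asparagine (adjusted p up to 0.111 and 0.0659).

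Beside them, the ARF family of small GTPases had 6 higher and 3 lower of 22 genes (27.3% and 13.6%), or 6 and 6 after the correction, with a median of 0.34 and -0.015 after the correction. ARF1, the Golgi ARF, averaged 242 ± 57.8 CPM in depleted cells and 557 ± 37.0 CPM with asparagine (log2 fold change -1.22, adjusted p = 0.00212, SE 0.18), and SAR1B, of COPII vesicles, 54.3 ± 16.8 CPM in depleted cells and 20.3 ± 0.690 CPM with asparagine (log2 fold change 1.32, adjusted p = 0.00479, SE 0.24). TRIM23 rose by 1.36, and ARL2 and ARF5 fell, with -1.36 and -0.77. The corrected values were -0.90 for ARF1, 0.93 for SAR1B, 0.92 for TRIM23, -0.78 for ARL2 and -0.24 for ARF5. TRIM23 did not pass without depleted library 2 or 3 or library 1 or 2 with asparagine, nor ARF5 without any one library other than depleted library 1 (adjusted p up to 0.0695 and 0.106). No test set the RAB genes against this list.

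**Figure D5:**
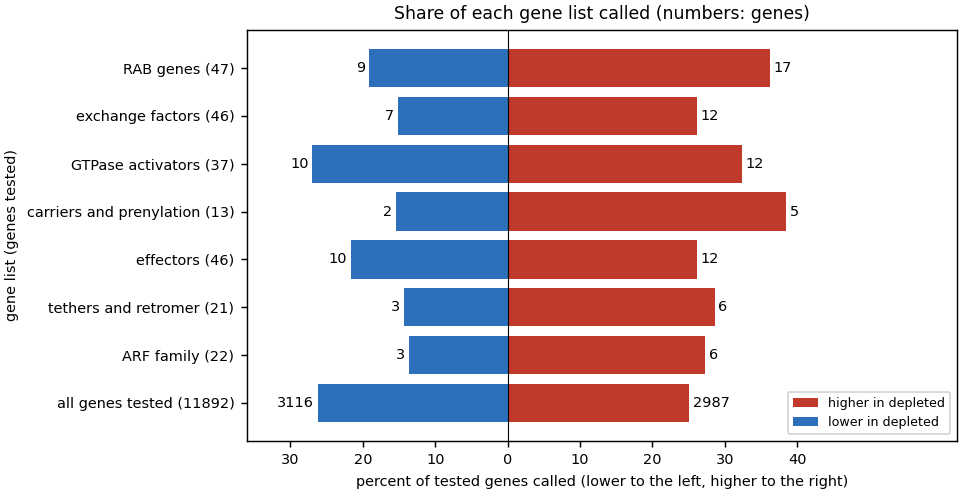
Percent of tested genes in each list that were lower (blue, left of 0) or higher (red, right of 0) in depleted cells, with the number of genes at each bar. RAB genes were called higher in 17 of 47 and lower in 9, beside 2987 and 3116 of all 11892 genes tested.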

How the data were processed

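The reads were processed with STAR, featureCounts (Subread) and FastQC on GRCh38, per the submitters' processing notes. Not given in the sources used here are versions, annotation, strand setting and scaling. The authors deposited normalized CPM, a depth-scaled signal with 11911 gene symbols in rows and 6 columns, which were matched to samples by arm and replicate number. In each column all values (100%) were multiples of a common step, to within 0.0001 of a read, so read numbers were inferred by taking the step as 1 read, and 3 such reads are worth 0.0598 to 0.0920 CPM. Intervals cover the spread between libraries. Every gene in the table reached 0.54 CPM in some library.

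Values were analysed as log2(CPM + 1) with limma 3.58.1 in R 4.3.3, keeping genes that reached 1 CPM in 3 or more libraries, with the group as the only term, empirical Bayes moderation with an intensity trend and Benjamini-Hochberg adjustment over all genes. GC content was the median over a gene's protein-coding transcripts in GENCODE 29 (95.5% of the genes, all 47 RAB genes). The correction removed a lowess trend (span 0.3) per library. GENCODE names 16 pseudogenes after 6 RAB genes (RAB5C, RAB9A, RAB9B, RAB11A, RAB28 and RAB43), whose reads are uncertain. The alternatives were other pseudocounts, filters, scalings and moderation, a replicate block, leave-outs, GC terms and voom weights on the whole reads. The count model listed among them was not run, since low values were too few to establish that the inferred reads are the counts.

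Library values are given for up to 12 higher and 12 lower RAB genes past the threshold at 5 CPM or more. They are also given for 14 chosen RAB genes except RAB32, which was not analysed here. From the other lists, values are given for up to 4 genes per direction and list. Some genes that these rules name are not reported here. RAB26 and the other RAB genes given with library values were added after their values were seen. The RAB genes, lists, pairs and motifs were chosen with earlier results of these data known. Role groups follow a main site, and several RABs act at more than 1.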

Additional observations from a re-analysis of the deposited data

How the results depend on the processing

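Across 19 alternatives, 10 of the 17 higher RAB genes (RAB2B, RAB3D, RAB6A, RAB14, RAB27A, RAB28, RAB30, RAB31, RAB33B and RAB37) and 5 of the 9 lower ones (RAB3A, RAB8A, RAB17, RAB26 and RAB34) kept their call wherever they could be fitted, which for RAB30 was 14 alternatives and for RAB26 15. Without these genes, which passed the filter through 1 arm alone, 9 higher and 4 lower genes kept theirs. Of 44 genes chosen from the other lists, 27 kept theirs and 0 changed direction. With 1 library left out, the counts spanned 11 to 20 higher and 4 to 15 lower RAB genes, 18 to 45 and 6 to 38 regulators, 11 to 35 and 4 to 26 effectors and tethers, 2 to 12 and 2 to 7 ARF genes, and 1724 to 4728 and 1785 to 4908 of all genes, and the RAB median spanned 0.086 to 0.21. The GC correction gave 14 lower RAB genes, 46 higher regulators, 32 higher effectors and tethers, 6 lower ARF genes and a RAB median of 0.048. With depleted library 1 also left out these were 15, 51, 35, 7 and -0.020. A GC slope as a covariate gave 14 lower RAB genes, 28 higher and 21 lower effectors and tethers and 6 lower ARF genes. This term, voom weights and a fit on genes with a GC value alone were chosen after seeing the data. The cause of these shifts was not tested.

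Some RAB genes took the other sign, of which RAB10 and RAB2A had passed the test without correction. After the GC correction the values were -0.12 for RAB11A, -0.0068 for RAB12, -0.039 for RAB13, 0.17 for RAB15, 0.048 for RAB1B, 0.36 for RAB35, 0.17 for RAB43, -0.061 for RAB9A and -0.37 for RAB9B. With the correction and without depleted library 1 they were -0.081 for RAB10, -0.070 for RAB11A, -0.017 for RAB12, -0.13 for RAB13, 0.22 for RAB15, 0.0025 for RAB1B, 0.051 for RAB20, -0.024 for RAB2A, 0.33 for RAB35, -0.048 for RAB9A and -0.41 for RAB9B. With the GC slope they were -0.16 for RAB11A, 0.094 for RAB11B, 0.096 for RAB15, 0.10 for RAB1B, 0.40 for RAB35, 0.66 for RAB43, -0.057 for RAB9A and -0.31 for RAB9B. Leaving out 1 library gave -0.11 to 0.13 for RAB13, -0.30 to 0.25 for RAB23 and -0.27 to 0.053 for RAB35.

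Libraries with the same replicate number correlated in their deviations from the group means at 0.083, -0.65 and 0.69, and the other pairs at -0.74 to 0.71. Deviations from a mean of 3 libraries are tied to each other, so these values cannot settle whether the numbers stand for a pairing. With the replicate number as a block, 17 RAB genes were higher and 8 lower, RAB38 passed (adjusted p = 0.0404) and RAB7A and RAB40B did not (0.0782 and 0.0501). The lowest level among the RAB genes was that of RAB26 in depleted library 3, at 0.161 CPM, an inferred 6 reads. The count model listed as an alternative was not run.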
